A study of Mus musculus with 13 samples.

Results

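The cluster of miR-183, miR-96 and miR-182 is a group of 3 miRNA genes that lie close together on the same strand of the genome, and the miRNAs followed here are the 5′ arms of their hairpins, mmu-miR-183-5p, mmu-miR-96-5p and mmu-miR-182-5p. They were taken by name from the table of expression values of the series, which holds 1079 mouse miRNAs, and all 3 were found. The RNA came from flank tumors of male C57BL/6 mice, 7 fed chow with 4% curcumin (curcumin) and 6 fed standard chow (control, labeled normal diet). Curcumin is a polyphenol of the turmeric root, and the diet began 14 days before B78H1 cells were injected and lasted until the tumors were taken 28 days after it. B78H1, a subline of the B16 mouse melanoma, makes no pigment and is deficient in antigen presentation. All 13 tumors stem from this line, mixed with whatever cells of the host had entered the tumor. Each RNA sample was hybridized to an array of its own, on which a miRNA is measured by several probes printed in replicate spots.

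The genes of the cluster are known to be transcribed together and cut into separate hairpins, and the mature miRNAs bind messenger RNAs mainly through the seed, bases 2 to 8, which lowers the amount of the encoded protein. The cluster is best known from the sensory cells of the ear and the eye. It is also found at high levels in several tumors, and miR-182 has been studied in melanoma, where the messages of the transcription factors FOXO3 and MITF are among its known targets.

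The mature sequences are shown because the seeds decide which messages can be bound, and the 3 seeds are similar without being equal. They are written 5′ to 3′ as given by RefSeq for the mouse assembly GRCm38.p6, with the seed in capitals.
mmu-miR-183-5p: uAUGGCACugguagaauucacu
mmu-miR-96-5p: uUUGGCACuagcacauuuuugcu
mmu-miR-182-5p: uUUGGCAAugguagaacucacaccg
Of the 7 seed bases, miR-183-5p and miR-96-5p share 6, miR-96-5p and miR-182-5p share 6, and miR-183-5p and miR-182-5p share 5. Over the whole length, aligned at the 5′ end without gaps, miR-183-5p and miR-182-5p are the closest pair, with 18 of 22 bases in common, whereas miR-183-5p and miR-96-5p share 13 of 22. All 3 seeds hold the letters UGGCA. Of the 840 array miRNAs whose sequence could be matched by name, 5 hold these letters in the seed, the other two being mmu-miR-221-5p and mmu-miR-3069-5p. No other miRNA of the array with a matched sequence had the same seed as a member. In the RefSeq table mmu-miR-1271-5p has the seed of miR-96-5p, but it was not on the array under this name.

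All 3 hairpins lie on the minus strand of chromosome 6 in GRCm38.p6, Mir183 at chr6:30169668-30169737, Mir96 at chr6:30169446-30169551 and Mir182 at chr6:30165918-30165992. In the direction of transcription Mir183 comes first, Mir96 follows after 116 bases and Mir182 after a further 3453 bases, and the whole cluster spans 3820 bases. It overlaps the long non-coding RNA gene Mirc35hg, and the nearest protein-coding genes are Nrf1 and Ube2h. Coordinates in the array files refer to an older assembly and were not used. The hairpin of Mir183 is shown with both of its mature arms in capitals, because the array detected the second arm, mmu-miR-183-3p, as well.
Mir183 hairpin: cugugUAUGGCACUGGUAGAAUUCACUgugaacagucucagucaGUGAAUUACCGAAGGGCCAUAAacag

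The arrays lay on 2 slides, slide 1 with 3 curcumin and 2 control tumors and slide 2 with 4 of each. Each slide carried its controls in array line 1 and its curcumin tumors in line 2, so that diet and line cannot be told apart. By the flags of the extraction software, 272 to 370 miRNAs were detected per curcumin tumor and 313 to 412 per control, and no spot was saturated. The lowest number, 272, and the lowest summed signal belonged to curcumin tumor 5. All 3 members were detected in 7 of 7 curcumin and 6 of 6 control tumors. The levels below are the log2 values deposited by the authors, which are quantile normalized, so that a level is relative to everything else measured on that array. Levels of different miRNAs are not compared, because each probe has its own brightness. The group sizes equal the numbers of mice in the study's methods, but mice carried a tumor in each flank and the sources do not say that every sample came from a different mouse, so that p-values measure only the spread between these samples.

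All 3 members were higher in the curcumin tumors. miR-183-5p and miR-96-5p rose by 1.12 and 1.18 on the log2 scale (2.18-fold and 2.26-fold), and miR-182-5p by 0.63 (1.55-fold). The limma fit covered all 1079 miRNAs, with p-values adjusted by Benjamini-Hochberg and a threshold of 0.05, and 3 of 3 members passed as higher. Of all miRNAs 20.9% passed, 9.55% as higher and 11.4% as lower, and over the 243 miRNAs detected on all arrays, to which the members belong, 21.0% passed as higher. The median log2 difference was 0.00 over all 1079 miRNAs, −0.10 over these 243 and 1.12 over the members. As the tumors are mixtures, a difference in the number of cells that carry a miRNA and a difference in the amount per cell cannot be told apart.

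For miR-183-5p the control tumors lay at 6.00, 6.19 and 6.53 (lowest, median and highest) and the curcumin tumors at 6.28, 7.59 and 7.86. Curcumin tumors 1, 2, 3, 4 and 6 formed a group between 7.51 and 7.86, tumor 7 lay lower at 6.95, still above all controls, and tumor 5 lay within the control range. The means were 7.38 ± 0.57 (SD, n = 7) and 6.25 ± 0.21 (SD, n = 6). The difference of 1.12 had a standard error of 0.23 (adjusted p = 0.00389 in limma). In an exact permutation test, which has 1716 possible splits, p was 0.0035 (two-sided, smallest possible p = 0.000583).

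miR-96-5p, whose seed sequence is known from inherited hearing loss when it is mutated, showed the tightest controls. They lay at 7.15, 7.27 and 7.49, whereas the curcumin tumors lay at 7.32, 8.81 and 8.96. The same 5 curcumin tumors formed the upper group, between 8.72 and 8.96, tumor 7 followed at 7.72, and tumor 5, at 7.32, equaled the second highest control. The means were 8.47 ± 0.66 (SD, n = 7) and 7.29 ± 0.11 (SD, n = 6), a difference of 1.18 (standard error 0.25, adjusted p = 0.00565 in limma). The exact permutation test gave p = 0.00641 (two-sided).

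miR-182-5p changed least and the groups overlapped most. The control tumors lay at 6.00, 6.32 and 6.75 and the curcumin tumors at 6.31, 7.21 and 7.32. Here both curcumin tumors 5 and 7, at 6.37 and 6.31, lay within the control range, and the other 5 lay above it, between 7.08 and 7.32. The means were 6.98 ± 0.45 (SD, n = 7) and 6.35 ± 0.28 (SD, n = 6). The difference of 0.63 (standard error 0.20) passed the threshold closely (adjusted p = 0.0384 in limma), and the exact permutation test gave p = 0.0163 (two-sided). The call was lost with each of 5 other scalings or floors of the scanner sums, with adjusted p between 0.0565 and 0.527, and when any of 9 single tumors was left out (curcumin 1, 2, 3, 4 and 6 and control 2, 3, 5 and 6), with a largest adjusted p of 0.0843.

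**Figure D1:**
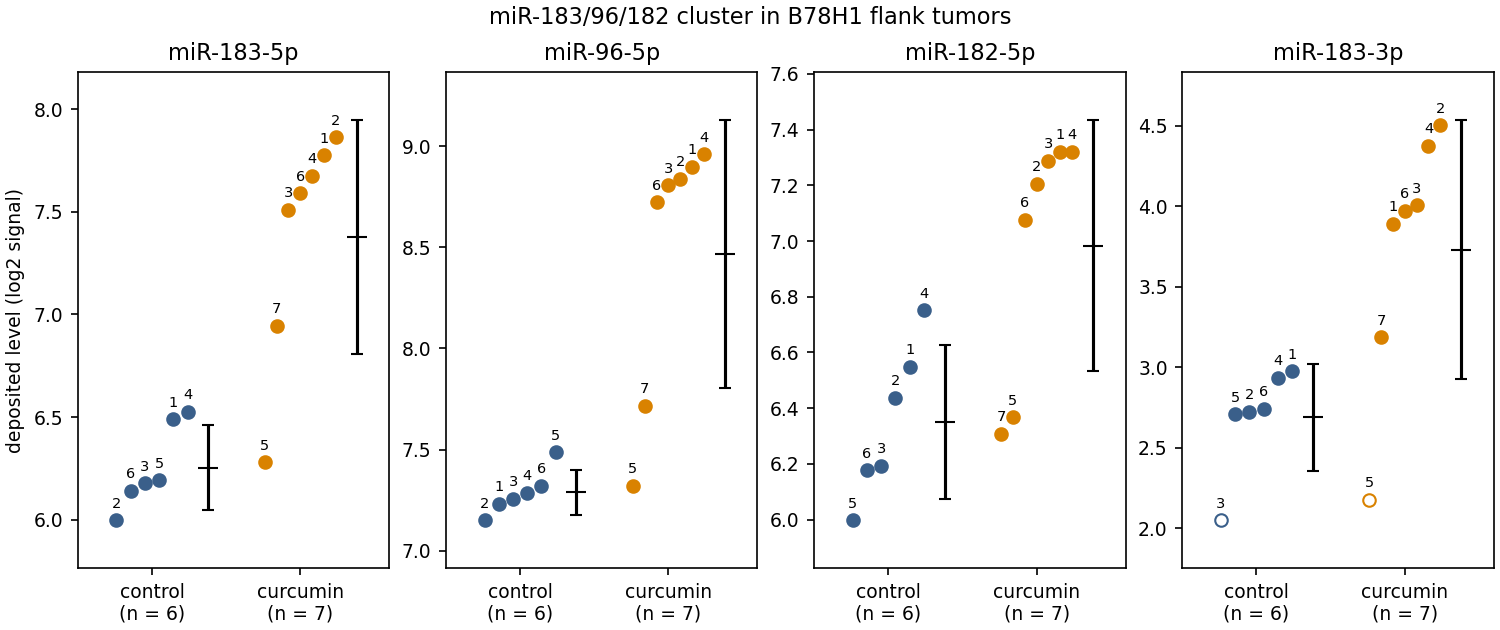
Deposited log2 level of miR-183-5p, miR-96-5p, miR-182-5p and miR-183-3p in each tumor, by diet; numbers are the tumor numbers, open circles are tumors in which the miRNA was not detected, and bars give the mean ± SD. Curcumin tumors 1, 2, 3, 4 and 6 lie above all controls in each panel, and curcumin tumor 5 lies within the range of the controls in each.

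In curcumin tumors the members varied more than in controls. The SD of miR-96-5p was 0.66 in curcumin and 0.11 in control tumors, against medians of 0.37 and 0.34 over the 243 miRNAs detected on all arrays. Of these miRNAs 86.8% had a smaller SD among curcumin tumors and 1.65% among controls. For miR-183-5p the shares were 77.0% and 15.6%, and for miR-182-5p they were 63.8% and 36.2%. The difference in spread between the diets was not tested. The larger spread lies with curcumin tumors 5 and 7, and tumor 5 also had the lowest summed signal of all arrays, whose part in its values was not tested. Tumor 7 had 369 detected miRNAs, close to the highest number among curcumin tumors. Without curcumin tumor 5 the log2 differences were 1.31, 1.37 and 0.74 for miR-183-5p, miR-96-5p and miR-182-5p, and all passed in limma (largest adjusted p = 0.0128). Of all 1079 miRNAs 250 passed in this fit, 121 of them as higher. Leaving out a low curcumin tumor raises the differences by itself.

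**Figure D2:**
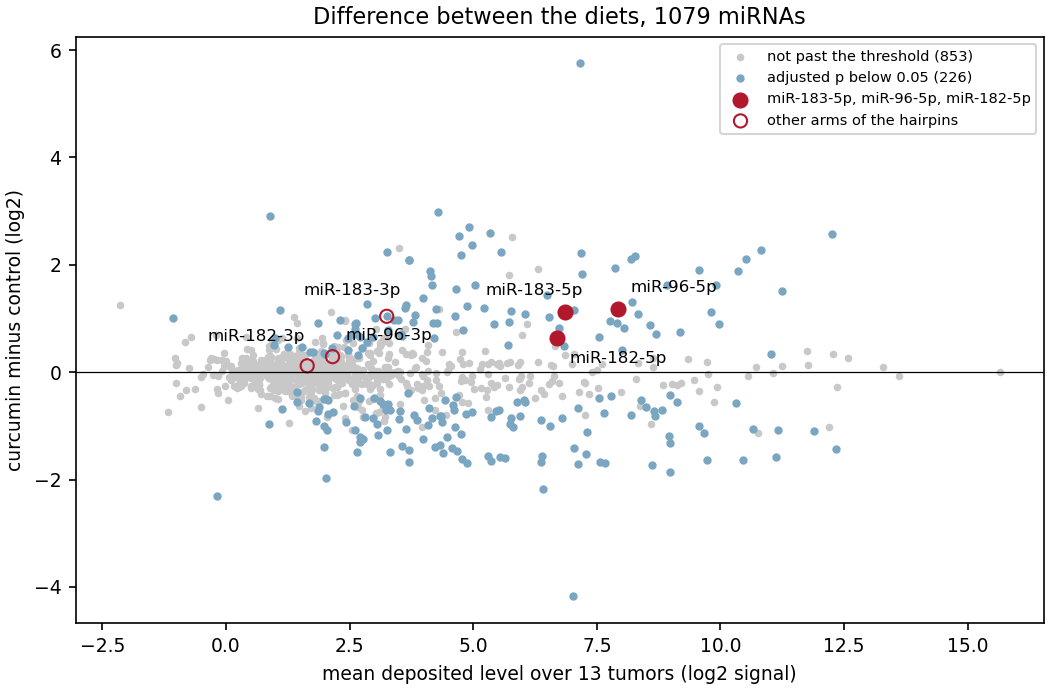
Log2 difference (curcumin minus control) against the mean deposited log2 level over 13 tumors for 1079 miRNAs, with the 226 that passed the threshold in blue and the arms of the 3 hairpins in red. The 3 members lie among well detected miRNAs above 0, and many miRNAs of similar level moved further in either direction.

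Many miRNAs had larger differences than the members. By log2 difference miR-96-5p was the 44th, miR-183-5p the 50th and miR-182-5p the 110th highest of the 1079 miRNAs. At least 6 of 7 curcumin tumors lay above all controls for miR-183-5p and miR-96-5p, as they did for 18.5% of the 243 miRNAs detected on all arrays. In no member were the groups fully apart in the deposited values, in which 9.05% of these 243 miRNAs had all curcumin tumors above all controls. The groups of miR-96-5p were apart when the scanner sums were scaled to a 75th percentile. For these scalings the share of all miRNAs was not counted.

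The same direction was seen on both slides. On slide 1 all 3 curcumin tumors lay above both controls for each member. The share of all miRNAs that did so was not counted, and with so few tumors such an order is common by chance. The log2 differences there were 1.47, 1.66 and 0.78 for miR-183-5p, miR-96-5p and miR-182-5p, and all passed in limma (adjusted p = 0.0119, 0.0045 and 0.0438). On slide 2, which held curcumin tumors 5 and 7, they were 0.86, 0.84 and 0.49, and none passed (adjusted p = 0.148, 0.225 and 0.367). On this slide 15 of all 1079 miRNAs passed, against 111 on slide 1. When slide was added as a block to the fit of all arrays, the log2 differences were 1.09, 1.15 and 0.60, and all 3 passed. In that fit 217 of all 1079 miRNAs passed, 104 of them as higher. Whether the effect differed between the slides was not tested.

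Each member is measured by 2 probes with 20 spots each, which are separate measurements of the same RNA. All 2754 mouse probes were also normalized and fitted without summing, which was decided on after the data had been seen, and the probes of a member gave similar differences. They were 1.06 and 1.10 for miR-183-5p (standard errors 0.27 and 0.24) and 1.21 and 1.17 for miR-96-5p (0.26 and 0.26). All of these passed (largest adjusted p = 0.0287 in limma). For miR-182-5p they were 0.82 and 0.56 (0.24 and 0.19), and neither passed (adjusted p = 0.0534 and 0.0799). The share of all 2754 probes that passed is not given here, so that these calls have no background to be read against. The brighter probe of miR-182-5p had 20 of 20 spots well above background on every array, the dimmer one between 7 and 20. The extraction software put the error of the summed signal of a member at 7.17% to 9.65% on any array. The signals themselves ranged from 34.9 to 295.0 for miR-183-5p, from 77.8 to 684.3 for miR-96-5p and from 38.8 to 204.7 for miR-182-5p before normalization.

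**Figure D3:**
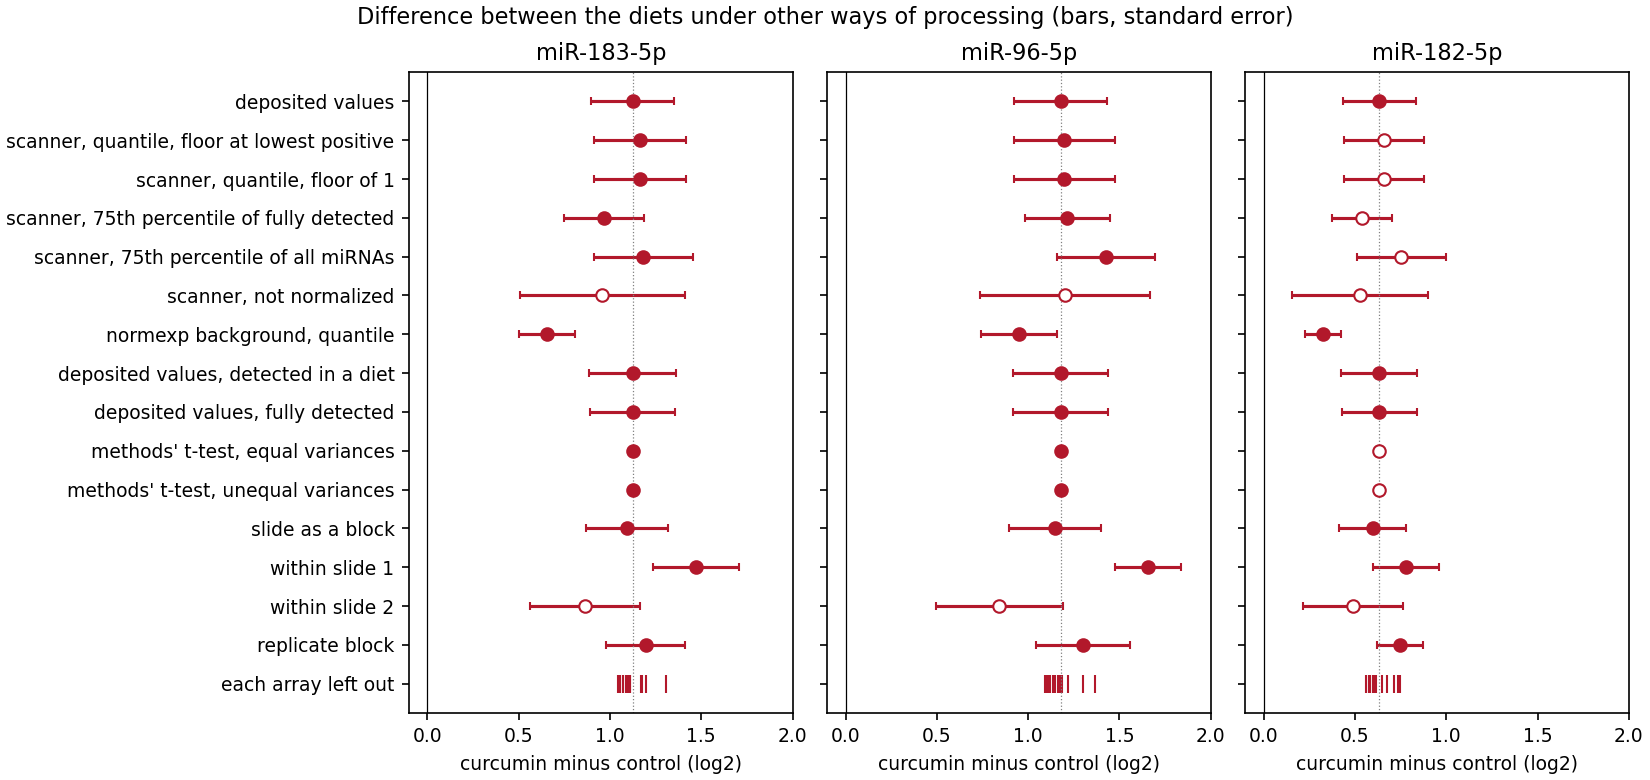
Log2 difference (curcumin minus control) of each member under each way of processing, with standard errors as bars; filled circles passed the threshold, open circles did not, the dotted line marks the deposited values, and the ticks in the last row are the 13 fits that left out 1 array. The differences of all 3 members stay above 0 in every row, and those of miR-182-5p are open circles in most scalings.

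How the values were scaled set the size of the differences, but no scaling turned their direction. When the scanner sums were not normalized between arrays, the log2 differences were 0.96, 1.20 and 0.53, and none of the members passed (adjusted p = 0.283, 0.19 and 0.527 in limma). Without normalization the standard errors were larger, between 0.37 and 0.46. With normexp background correction an offset of 50 was added before the log2 step, which shrinks differences of dim signals. The differences were smaller there, at 0.66, 0.95 and 0.33, and all 3 passed, as did 230 of all 1079 miRNAs (112 as higher). The median difference of the 243 miRNAs detected on all arrays moved with the scaling as well, from −0.04 to −0.26, against −0.10 in the deposited values.

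The ratio of members on the same array does not depend on a scaling factor, and it describes whether the members differed by unequal amounts between the diets. On the log2 scale the scanner sum of miR-96-5p over that of miR-182-5p averaged 1.61 ± 0.27 (SD, n = 7) with curcumin and 0.93 ± 0.21 (SD, n = 6) without it. For miR-183-5p over miR-182-5p it was 0.36 ± 0.24 (SD, n = 7) and −0.07 ± 0.20 (SD, n = 6). In both ratios 6 of 7 curcumin tumors lay above all controls and curcumin tumor 5 was the lowest curcumin tumor. In the deposited values 5 of 7 did so for miR-96-5p over miR-182-5p, at 1.48 ± 0.25 (SD, n = 7) and 0.94 ± 0.36 (SD, n = 6). For miR-183-5p over miR-182-5p 6 of 7 did so there. The share of other pairs of miRNAs with such an order was not counted. For miR-183-5p over miR-96-5p the curcumin tumors averaged −1.24 ± 0.08 (SD, n = 7), with the highest curcumin tumor at −1.16 and the controls between −1.14 and −0.84. In the deposited values this last ratio was −1.09 ± 0.18 (SD, n = 7) and −1.04 ± 0.23 (SD, n = 6) and the groups overlapped. These ratios are given without a test.

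**Figure D4:**
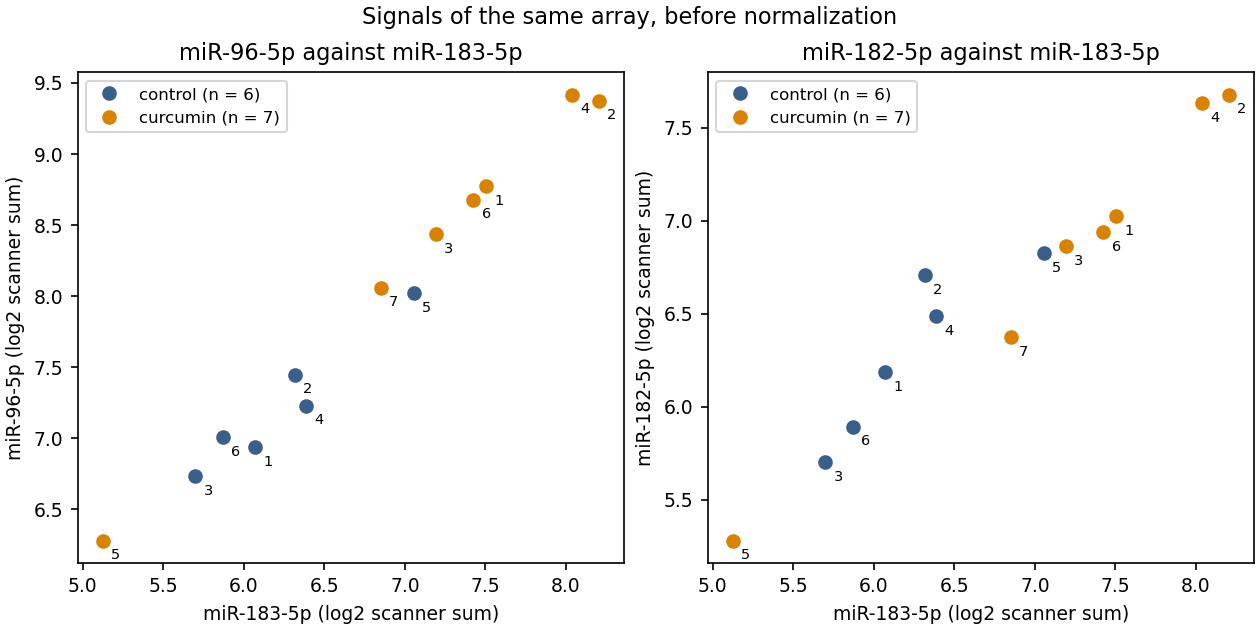
Log2 scanner sums of miR-96-5p (left) and miR-182-5p (right) against that of miR-183-5p on the same array, before normalization between arrays, with tumor numbers. Signals of a pair rise together over the arrays, and curcumin tumor 5 has the lowest signal of all 3 members.

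Across tumors the members moved together. Over the 13 tumors the deposited values of miR-183-5p and miR-96-5p correlated with r = 0.97 (rho = 0.84), those of miR-183-5p and miR-182-5p with r = 0.91 (rho = 0.81) and those of miR-96-5p and miR-182-5p with r = 0.89 (rho = 0.63). These are descriptions, since the values share the arrays, the normalization and the difference between the diets. After each diet's mean had been subtracted, r was 0.91, 0.84 and 0.79. Within a diet the values rest on few tumors, and the difference between the diets was not tested. Among the 7 curcumin tumors r was 0.97, 0.89 and 0.97 (rho = 0.82, 0.67 and 0.92). Among the 6 without tumor 5 it was 0.94, 0.91 and 0.99 (rho = 0.71, 0.52 and 0.93). These 6 still hold tumor 7, which lay below the others for each member. Among the 6 controls r was 0.07, 0.64 and −0.60 (rho = 0.26, 0.49 and −0.60), where the SD of each member was at most 0.28.

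The members were not each other's nearest neighbors among all miRNAs. With the diet means subtracted, miR-96-5p ranked 4th in likeness to miR-183-5p among the 242 other miRNAs detected on all arrays, and miR-182-5p ranked 16th. Such ranks lean on curcumin tumors 5 and 7, with which the larger spread of the members lies, and say little about the controls. The 5 miRNAs most like miR-183-5p were mmu-miR-34c-5p (r = 0.95), mmu-miR-450a-5p (0.93), mmu-miR-27b-3p (0.91), mmu-miR-96-5p (0.91) and mmu-miR-23b-3p (0.91). Those most like miR-96-5p were mmu-miR-152-3p (r = 0.95), mmu-miR-34c-5p (0.92), mmu-miR-34b-5p (0.92), mmu-miR-183-5p (0.91) and mmu-miR-23b-3p (0.88). miR-182-5p was most like mmu-miR-148b-3p (r = 0.88), mmu-miR-151-5p (0.87), mmu-miR-30a-5p (0.87), mmu-miR-219-5p (0.85) and mmu-miR-183-5p (0.84). With the diet means kept, mmu-miR-34c-5p remained first for miR-183-5p (r = 0.98) and mmu-miR-152-3p first for miR-96-5p (r = 0.98), and mmu-miR-219-5p was first for miR-182-5p (r = 0.92). The median r with all others was −0.06, −0.11 and 0.08 for the 3 members.

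**Figure D5:**
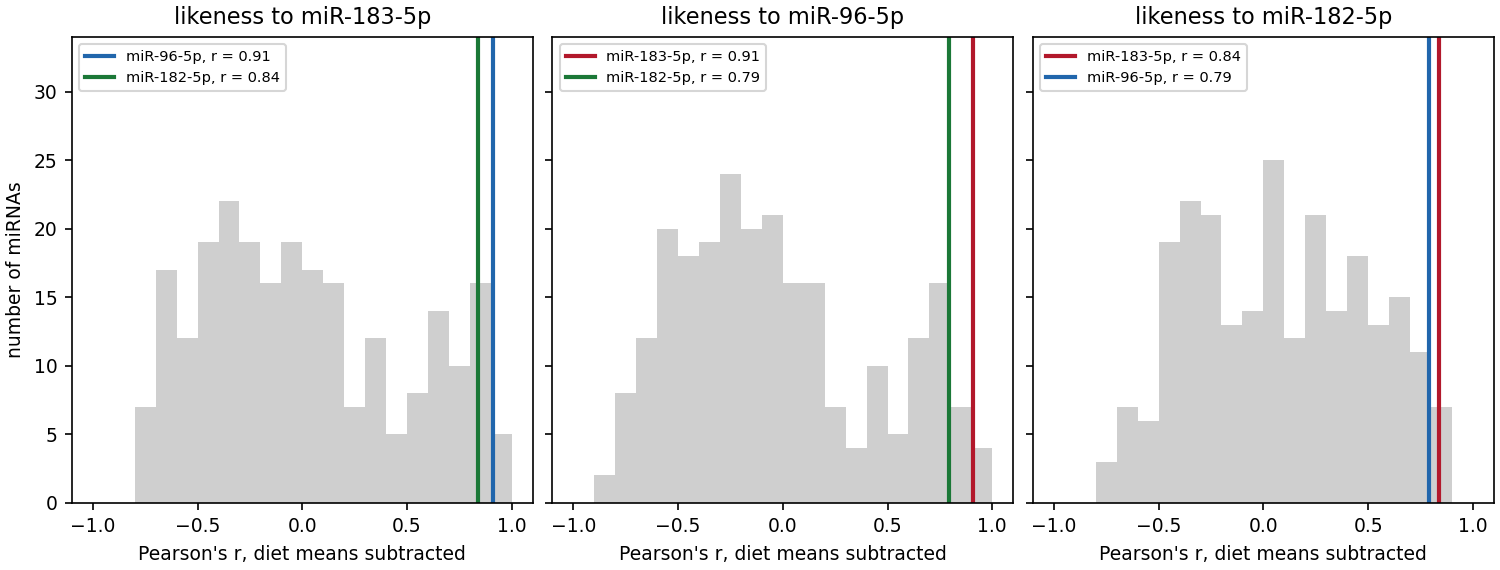
Number of miRNAs at each Pearson's r with a member over the 13 tumors, after each diet's mean was subtracted, among the 242 other miRNAs detected on all arrays; lines mark the other two members. The members lie at r between 0.79 and 0.91 in the upper tail, which they share with other miRNAs.

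Of the second arms, which are usually degraded when the hairpin is processed, mmu-miR-183-3p was dim. The software detected it in 6 of 7 curcumin and 5 of 6 control tumors, and not in curcumin tumor 5 and control tumor 3. The control tumors lay at 2.05, 2.73 and 2.97 and the curcumin tumors at 2.18, 3.97 and 4.50. As in miR-183-5p, the 6 curcumin tumors other than tumor 5 lay above all controls. At least 6 of 7 curcumin tumors did so for 18.5% of the 243 miRNAs detected on all arrays. mmu-miR-183-3p is not one of these, and the share over all 1079 miRNAs was not counted. The difference was 1.04 (standard error 0.32, adjusted p = 0.0345 in limma). Of its 4 probes 2 had no spot well above background on any array, and the other two had between 0 and 10 of 10 spots above it, so that the size of the difference depends on how dim signals were treated. Across the alternatives its log2 difference ranged from 0.16 with normexp to 3.12 with the scanner sums, always above 0. The call was lost in 7 of 12 alternatives, both forms of the methods' t-test among them, with a largest adjusted p of 0.783. It was also lost in 10 of the 13 fits that left out 1 array, with a largest adjusted p of 0.0728. mmu-miR-96-3p and mmu-miR-182-3p were detected on no array, and no difference is given for them.

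Marker miRNAs of other cell types are given beside the members. Their counts are to be read against the 9.55% of all 1079 miRNAs that passed as higher and the 11.4% that passed as lower. Of the 243 miRNAs detected on all arrays 21.0% passed as higher. Of 7 white blood cell miRNAs, all 7 passed as higher in curcumin tumors, among them mmu-miR-142-5p with a log2 difference of 2.55 (standard error 0.37, adjusted p = 0.000604), and their summed normalized signal was 721.8 to 2070 in curcumin tumors and 400.3 to 598.4 in controls. Of 5 miRNAs of fibroblasts and smooth muscle, 3 passed as higher, namely mmu-miR-199a-3p, mmu-miR-199a-5p and mmu-miR-214-3p. The smooth muscle miRNAs mmu-miR-143-3p and mmu-miR-145-5p had log2 differences of 0.18 and −0.14 and did not pass. The sum of the list was 498.3 to 1094 in curcumin tumors and 161.5 to 392.2 in controls. Both sums were lowest among curcumin tumors in tumor 5, as were the sums of the epithelial miRNAs. In tumor 7 both sums were the highest of all tumors, at 2070 and 1094. In this tumor miR-183-5p and miR-96-5p, at 6.95 and 7.72, lay above all controls but below the upper group of curcumin tumors. miR-182-5p, at 6.31, lay within the control range. The part of white blood cells, fibroblasts and smooth muscle in the rise of the cluster was not tested.

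Of 7 keratinocyte and epithelial miRNAs, 1 passed as higher, mmu-miR-205-5p, with a log2 difference of 5.75 (standard error 0.98, adjusted p = 0.00108). The sum of the list was 218.4 to 1739 in curcumin tumors and 3.28 to 165.2 in controls. The 5 members of the miR-200 family, which mark epithelium most clearly, were detected on no array, and mmu-miR-203-3p was detected in 5 of 7 and 2 of 6 tumors. The melanocyte miRNA mmu-miR-211-5p was detected in all 6 controls and in 4 of 7 curcumin tumors and fell by 4.17 (standard error 0.96, adjusted p = 0.00726), and mmu-miR-204-5p did not pass. The summed signal of both was 307.8 to 847.4 in controls and 4.19 to 623.9 in curcumin tumors, with the highest curcumin value in tumor 5.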

How the data were processed

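The authors hybridized total RNA of each tumor, labeled with Cy3, to Agilent mouse miRNA arrays and obtained intensity values from Feature Extraction software, release 10.10.1.1, which corrects for background, combines the replicate spots of a probe and calls each miRNA detected or not. The authors deposited log2 values, which by their methods were made by summing the probes of a miRNA, quantile normalization and log2. All 14027 of these values were met within 1e-04 from the scanner values with a constant of 4.39 added before the log2 step, which shrinks differences of dim miRNAs. The scanner values used for this were the software's total signal of a miRNA where it was detected. Where it was not, they were the sum of its probes. The scanner sums of the alternatives are sums of probes throughout. The deposited log2 values of all 1079 miRNAs entered limma 3.58.1 under R 4.3.3 (two-sided, without covariates), p-values were adjusted by Benjamini-Hochberg, and single members were also given an exact permutation test. No arrays held equal values, and all 13 were used. The fit was tested on simulated data.

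The values of the authors were the main ones because the members were defined on them. Scanner sums with other scalings, normexp (offset 50), filters, the methods' t-test, slide and replicate number as blocks and leaving out each array were alternatives. The members, the lists of marker miRNAs (melanocyte, keratinocyte and epithelial, white and red blood cell, fibroblast and smooth muscle, endothelial, skeletal muscle, neuron) and the tests were chosen with earlier results of these data known. miRNAs named are the members, the other arms, miRNAs of equal seed, list markers and the 5 most alike by Pearson's r. List sums are of quantile-normalized scanner sums. The number of arrays limits the precision. Other experiments of the study were not analysed here.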

Additional observations from a re-analysis of the deposited data

Results flagged for a closer look

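Among the 8 groups of values checked for a tumor that stands apart (the 3 members and mmu-miR-183-3p in each diet), 1 was found, and chance gives about 1 in 20. It was mmu-miR-183-3p in control tumor 3, with a deposited log2 level of 2.05, whose gap to the next control was 0.713 of the range of the controls. The miRNA was not detected in this tumor. Without it the log2 difference between the diets was 0.91 and no longer passed the threshold in limma (adjusted p = 0.0728).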

How the results depend on the processing

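No alternative turned the direction of a member. miR-183-5p and miR-96-5p kept their call in 14 of 16 alternatives each and without any single array, where their log2 differences lay between 1.04 and 1.31 and between 1.09 and 1.37. They lost it without normalization between arrays (0.96 and 1.20) and within slide 2 (0.86 and 0.84). miR-182-5p kept it in 6 of 16. It was lost for the scanner sums with quantile normalization and either floor (0.66 in both), scaled to the 75th percentile of the fully detected miRNAs (0.54) or of all miRNAs (0.75), or not normalized (0.53), within slide 2 (0.49), with both forms of the methods' t-test (0.63), and for each probe alone (0.82 and 0.56). Without single arrays it lay between 0.56 and 0.75 and was lost in 9 of 13 fits. The cause was not tested.

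Over all miRNAs 226 passed, 103 higher and 123 lower (45.6% higher). The number was 138 and 105 with the 2 scalings to the 75th percentile, 49 without normalization, 126 when only the 243 fully detected miRNAs were tested, 147 with the methods' t-test with unequal variances, 111 within slide 1 and 15 within slide 2, and 157 to 250 without single arrays. When scaled by the 75th percentile over all miRNAs, 69.5% of those that passed were higher, and in unnormalized sums 20.4%. With the replicate number as a block the differences of miR-183-5p, miR-96-5p and miR-182-5p were 1.20, 1.30 and 0.75 and 164 miRNAs passed. No clear sign was seen that the numbers pair the tumors, although 6 pairs cannot show that pairing is absent. In 3 of 6 pairs the deviations from the group means correlated above 0.1 (−0.26 to 0.21). Of 6 tumors 0 were most alike to their own number. Signals near the background limit mmu-miR-183-3p.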

Other observations

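Of 2 endothelial miRNAs, mmu-miR-126-3p passed as higher in curcumin tumors (log2 difference 0.82, standard error 0.26, adjusted p = 0.0384 in limma), and the sum of the list was 254.1 to 819.9 in curcumin tumors and 137.2 to 281.4 in controls, so that the groups overlapped. Of 4 skeletal muscle miRNAs, mmu-miR-206-3p passed as higher (1.13, standard error 0.31, adjusted p = 0.0207). The sum of this list ranged from 29.1 in curcumin tumor 7 to 961.6 in curcumin tumor 5 and from 23.3 to 607.2 in controls, the reverse of the order of these tumors in the white blood cell and fibroblast lists.

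Of 6 neuronal miRNAs 0 passed as higher and 3 as lower, mmu-miR-128-3p (−0.97, standard error 0.23, adjusted p = 0.00808), mmu-miR-138-5p and mmu-miR-129-5p, of which the last was detected on no array. mmu-miR-124-3p, the main marker of neurons, was not detected either. Of all 1079 miRNAs 11.4% passed as lower. The 2 red blood cell miRNAs found on the array did not pass. mmu-miR-451 had a log2 difference of −0.80 (standard error 0.56, adjusted p = 0.378), and the sum of the list was 45.4 to 276.9 in curcumin tumors and 39.9 to 713.9 in controls.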
